A study of Homo sapiens with 6 samples.

Results

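The proteasome is the protease complex that degrades ubiquitin-tagged proteins in the cytosol and nucleus. Its core particle is a barrel of stacked rings, in which PSMA proteins form the outer alpha rings and PSMB proteins the inner beta rings that hold the active sites. A regulatory cap of PSMC and PSMD proteins recognises, unfolds and feeds the substrate, other caps made of PSME proteins open the barrel without ubiquitin, and PSMG proteins are chaperones of core assembly. K562 cells, from which all libraries were made, are a human chronic myelogenous leukemia cell line.

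Members were the rows of the ribosome footprint table whose gene symbol began with PSM, a letter from A to G and a number. This rule found 49 of the 19330 genes listed. Of these, 48 encode proteasome subunits, activators, assembly factors or the regulator PI31 (PSMF1), and 1, PSMC3IP, encodes a meiotic recombination factor that shares the letters only. It was described apart and left out of every group count. The rule itself uses names and no measured value.

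Ribosome profiling (Ribo-Seq) sequences mRNA stretches shielded by ribosomes, so footprints on a coding sequence (CDS) reflect ribosome occupancy, which depends on mRNA abundance as well as on translation. Cells of both groups received Cas9 and a guide from the lentiviral vector pLentiCRISPRv2, were selected with puromycin for 48 h and were kept until 10 days after infection. The 3 sgN6AMT1 libraries came from cells with a guide against N6AMT1, a methyltransferase of the translation release factor eRF1. The 3 sgCtrl libraries came from cells with guides against olfactory receptor genes, which the labels give as OR11A1 and OR2M49 and the study's methods as OR11A1 and OR2M4. Those methods also name a nontargeting control guide against EGFP and more than 1 guide against N6AMT1, without tying them to these libraries. Which control guide each library carried is not stated, and per the study's methods the libraries of a group came from separate infections, so each was a mixed population of edited cells and not 1 clone. In such bulk lysates fewer cells of a kind and less RNA per cell cannot be told apart. N6AMT1 itself had 25, 24 and 34 counts in the controls and 10, 9 and 8 counts after depletion, with no overlap. Its level fell by 1.51 in log2 units (edgeR adjusted p 6.69e-05, SE 0.313), from 12.5 ± 4.24 to 4.21 ± 0.275 CPM (SD, n = 3 each), where CPM are counts scaled to the library size after trimmed-mean (TMM) normalisation.

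Library totals ran from 1821356 to 2969736 counts. Pairs of libraries within a group differed by a chi-square per degree of freedom of 1.25 to 1.68, above sampling noise, and pairs across groups by 4.89 to 7.04. All 8 erythroid markers checked had footprints, with summed levels of 27200 to 28700 CPM in sgCtrl and 27700 to 28600 CPM in sgN6AMT1. Within this list ALAS2 and HBE1 were higher, by 1.68 and 0.48 in log2 units, and TFRC, GATA1 and HBZ lower, at -0.33, -0.29 and -0.27 (edgeR). T cell, B cell and epithelial lists rested on CD3D and EPCAM or on a few counts, and 1, 2 and 2 of their genes were at 0. Summed monocyte markers ran from 51.7 to 61.0 CPM in sgCtrl and from 105 to 117 CPM in sgN6AMT1, most of it LYZ, while CD14 and FCN1, 2 of the 5, were at 0. ITGAM, another of the 5, was under the filter, with 2, 1 and 0 counts in controls and 17, 9 and 15 after depletion. The part of this in the results was not tested.

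Together the 48 genes took 1.43% ± 0.0137 of the reads counted in controls and 1.42% ± 0.0221 after depletion (SD, n = 3 each), so the share of the whole machinery overlapped between the groups. Scaled to TMM-adjusted library sizes, the same shares were 1.46% and 1.40%, and the 3 sgN6AMT1 values, at most 1.42%, lay below the 3 sgCtrl values, at least 1.44%. All but PSMA8 and PSMB11 had at least 1 count, and 44 of the 48 passed the filter on low counts. Those below it were PSMA8, the alpha subunit of testis, PSMB11, the beta subunit of the thymus, and the immunoproteasome subunits PSMB8 and PSMB9.

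Levels of different genes were compared as footprint density, in CPM per kilobase of annotated CDS, for the 42 proteasome genes that passed the filter and had a CDS length. PSMC4 and PSMD8 had none, since their listed transcripts were not matched. Core subunits stood above cap subunits: the median density in sgCtrl was 652 for 14 core genes and 237 for 15 cap genes, a ratio of 2.76, against 24.3 for all tested genes with a CDS length. Subunits of the core are present in equal copies within the core, and those of the cap within the cap. The densest core gene had 4.53 to 4.68 times the density of the sparsest in the sgCtrl libraries and 4.49 to 4.94 times in the sgN6AMT1 libraries. Among cap genes this ratio was 3.17 to 3.52 and 3.60 to 3.72.

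The beta ring held the highest values. PSMB1 was densest, at 1433 ± 3.52 (SD, n = 3) in sgCtrl, ahead of PSMB2 at 1302 ± 22.3 and PSMA5 at 1097 ± 98.9. PSMB3 followed at 1027 ± 56.9, which lay within the spread of PSMA5. PSMA6, at 312 ± 4.70, was the lowest of the alpha ring and of the whole core, and PSMB6, at 387 ± 13.5, the lowest of the beta ring. Thus even within a ring the densest gene had several times the density of the sparsest.

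Among cap genes PSMC2, an ATPase, at 452 ± 4.27, and PSMD14, the deubiquitinase of the lid, at 411 ± 21.2, overlapped with the lower core genes. PSMD1, a large scaffold of the base, was lowest at 135 ± 6.06. Between these lay a band of cap genes with close values: PSMD3, PSMD12, PSMD11, PSMD13 and PSMD7 ran from 228 to 254, with SDs from 6.55 to 18.8, so neighbours in this order did not differ beyond their spread. Chaperones and activators were sparser by median, at 103 for chaperones of the cap, 109 for those of the core and 133 for activators. They ran from 38.0 for PSME4 and 39.5 for PSMG4 to 231 for PSME3 and 249 for PSMG1. PSME3 and PSMG1 thus lay within that band of cap genes.

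The subunits of TRiC, a cytosolic chaperonin that is also built from equal copies, lay closer together. Its 8 genes ran from 638 to 962 with a coefficient of variation of 14.4% in sgCtrl, beside 50.8% for the 14 core genes and 34.7% for the 15 cap genes. In sgN6AMT1 these values were 13.9%, 54.6% and 39.3%. Densities also carry elongation speed and the mapping of reads, and processed copies of subunit genes can share reads with them, so a density is not a measured copy number.

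**Figure D1:**
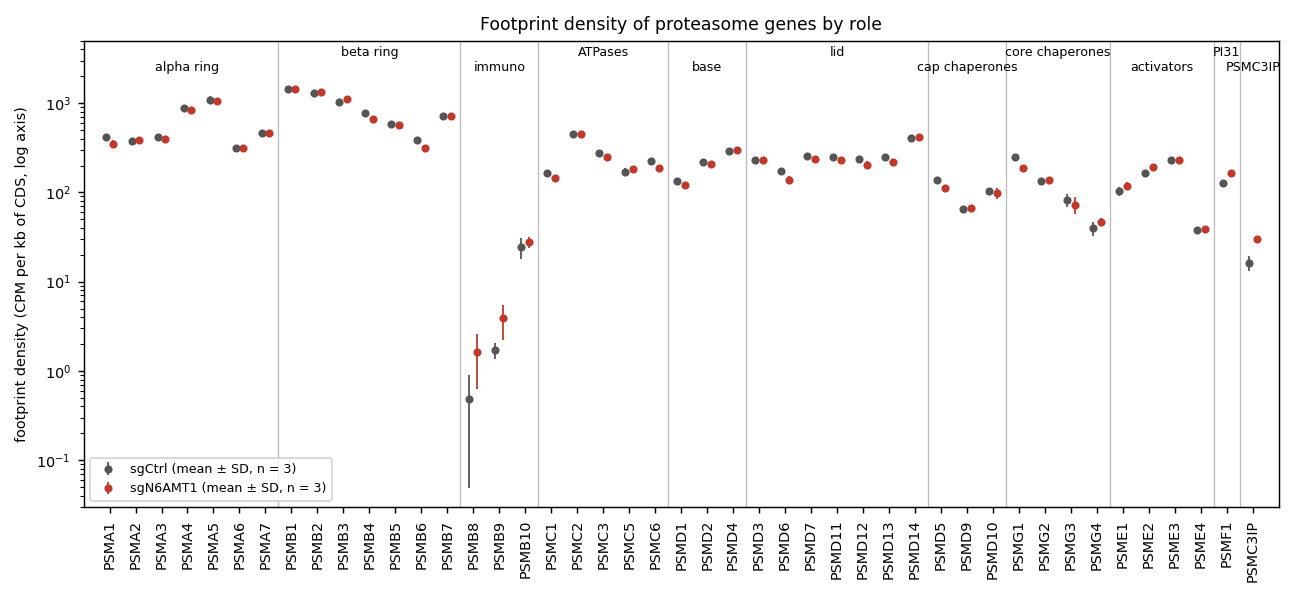
Footprint density in CPM per kb of CDS (log axis) for members with a CDS length and a mean above 0 in sgCtrl, grouped by role, with points for the group mean and bars for the SD of 3 libraries. PSMB1 is highest at 1433 in sgCtrl, cap genes lie mostly below core genes, and PSMB8 and PSMB9 lie near the bottom of the axis.

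**Figure D2:**
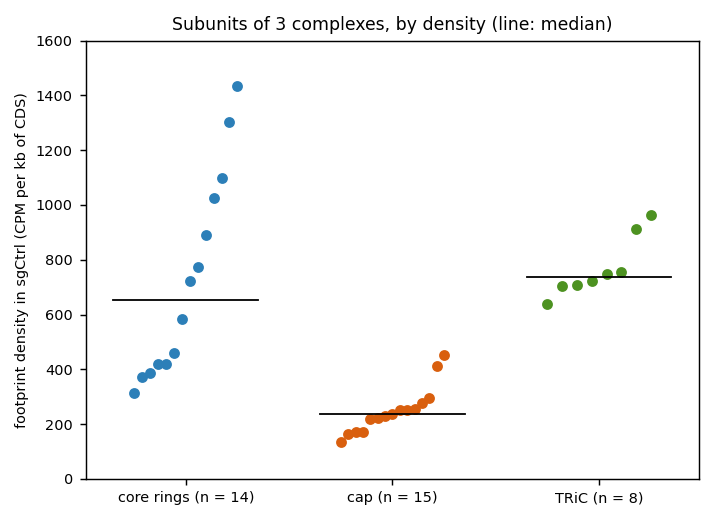
Density in sgCtrl (CPM per kb of CDS, mean of 3 libraries) of each subunit of the core rings, the cap and TRiC, sorted within each complex, with a line at the median. Core subunits spread from 312 to 1433, cap subunits from 135 to 452 and TRiC subunits from 638 to 962.

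To ask which proteasome genes changed their occupancy upon N6AMT1 depletion, all 9202 genes with enough counts were fitted with edgeR's quasi-likelihood test, and p-values were adjusted over all of them by the Benjamini-Hochberg method. Of the 44 proteasome genes tested, 11 were lower and 2 higher in sgN6AMT1 at an adjusted p under 0.05, which is 29.5% in either direction beside 26.9% of all genes tested. Lower genes were thus 25.0% of those tested, where 13.9% of all tested genes were lower. Higher genes were 4.55%, where 12.9% of all were higher. The median level was 268 CPM over 42 proteasome genes with a CDS length and 35.5 CPM over all tested genes with one. Smaller changes can pass at higher counts, so these shares were not compared at like depth. All changes of the 44 genes were small, from -0.42 to 0.38 on the log2 scale. Their median was -0.0313 (0.0233 when scaled by total counts), beside 0.0063 over all genes tested. This split moved with the scaling and the tool: 8 were lower and 4 higher with total counts, where 10.6% and 17.0% of all genes were. Once trends on CDS length and GC content were removed, 17 were lower and 1 higher, beside 17.3% and 11.8% of all genes. By DESeq2, 7 were lower and 1 higher, beside 6.91% and 5.49% of all genes. Values of the groups did not overlap, with sgN6AMT1 below, for 13 of the 44 genes, and with sgN6AMT1 above for 3, beside 19.2% and 18.4% of all genes tested.

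Occupancy of the core rings changed in few genes. Of 14 core genes, 3 were lower (21.4%) and 0 higher (edgeR), beside 13.9% and 12.9% of all genes tested. The core median log2 fold change was -0.0243, which was 0.0303 when scaled by total counts. In the alpha ring PSMA1 (ENST00000418988.2, chromosome 11, 14505064 to 14643617 in GRCh38) was the only one of 7 to pass. Its sgCtrl libraries held 328, 357 and 328 CPM and its sgN6AMT1 libraries 316, 272 and 260 CPM. All sgN6AMT1 values lay below, the first of them narrowly. This was a log2 fold change of -0.26 (edgeR adjusted p 0.000794, SE 0.063). The other 6 alpha genes had log2 fold changes from -0.11 (PSMA4) to 0.07 (PSMA2).

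The beta ring carried a contrast between its active sites. PSMB6 encodes the caspase-like site, PSMB7 the trypsin-like site and PSMB5 the chymotrypsin-like site. PSMB6 (ENST00000270586.7, chromosome 17, 4796164 to 4798495) had 284, 281 and 266 CPM in sgCtrl and 210, 232 and 230 CPM in sgN6AMT1. The groups were clearly apart, with a log2 fold change of -0.31 (edgeR adjusted p 7.35e-05, SE 0.0647). PSMB7 overlapped between the groups, at 600, 617 and 581 CPM in sgCtrl and 626, 595 and 578 CPM in sgN6AMT1. Its log2 fold change of 0.0003 had a 95% interval from -0.102 to 0.103. PSMB5 held 438, 458 and 485 CPM in sgCtrl and 446, 439 and 450 CPM in sgN6AMT1, and its interval ran from -0.157 to 0.059. In 1 of 16 alternatives, the removal of CDS length and GC trends, PSMB5 was called lower (edgeR adjusted p 0.00381). Per kilobase, PSMB6 had 0.536 ± 0.0114 (SD, n = 3) of the density of PSMB7 in sgCtrl and 0.433 ± 0.0396 in sgN6AMT1, with no overlap. Its ratio to PSMB5 went from 0.605 to 0.714 in sgCtrl to 0.518 to 0.581 in sgN6AMT1. No test was made on these ratios, which were chosen after the values were seen.

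PSMB4, a beta subunit without an active site, was the other beta gene that passed. It held 622, 595 and 625 CPM in sgCtrl and 511, 535 and 529 CPM in sgN6AMT1, again with no overlap. The log2 fold change was -0.22 (edgeR adjusted p 0.000443, SE 0.0525). PSMB1, PSMB2 and PSMB3, likewise without active sites, had log2 fold changes of 0.02, 0.02 and 0.12 and did not pass (edgeR adjusted p 0.799, 0.78 and 0.0822). The 3 sgN6AMT1 values of PSMB1, 1041 to 1064 CPM, lay just above those of sgCtrl, 1034 to 1039 CPM.

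Several cap genes were lower. Of 17 cap subunits 6 were lower (35.3%) and 0 higher (edgeR), beside 13.9% and 12.9% of all genes tested. The log2 fold change was negative for 13 of the 17, beside 4512 of the 9202 genes tested. The cap median was -0.12, which was -0.0628 when scaled by total counts. DESeq2 called only PSMC6 and PSMD6 of the 6. The ATPases, a ring of PSMC proteins that unfolds substrates, gave 3 of the 6. PSMC6 held 249, 272 and 289 CPM in sgCtrl and 235, 235 and 204 CPM in sgN6AMT1. The groups did not overlap, and its log2 fold change was -0.26 (edgeR adjusted p 0.00125, SE 0.0665).

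PSMC3 and PSMC4 passed by a narrow margin. PSMC3 held 344, 355 and 395 CPM in sgCtrl and 315, 331 and 339 CPM in sgN6AMT1, a log2 fold change of -0.15 (edgeR adjusted p 0.0448, SE 0.0599). PSMC4 held 329, 296 and 358 CPM in sgCtrl and 278, 315 and 275 CPM in sgN6AMT1, a log2 fold change of -0.17 (edgeR adjusted p 0.0376, SE 0.0639). The values of PSMC4 overlapped between the groups. Both calls were lost in 10 of 16 alternative settings, DESeq2 among them, with adjusted p-values up to 0.289 for PSMC3 and 0.291 for PSMC4. The call of PSMC3 was lost without sgCtrl replicate 2 or 3 or sgN6AMT1 replicate 1 or 2, and that of PSMC4 without sgCtrl replicate 1 or 3 or sgN6AMT1 replicate 1 or 3. PSMC1 just missed, at -0.17 (SE 0.0693, edgeR adjusted p 0.0568), PSMC5 lay at 0.10, and PSMC2, the densest ATPase, at -0.0109 with an interval from -0.113 to 0.091.

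The lid holds the deubiquitinase and its scaffold. PSMD6, one of its scaffold subunits, held 220, 232 and 234 CPM in sgCtrl and 200, 190 and 163 CPM in sgN6AMT1. The groups did not overlap, and this was the largest decrease in the cap, a log2 fold change of -0.31 (edgeR adjusted p 0.000299, SE 0.07). PSMD12 held 303, 340 and 328 CPM in sgCtrl and 308, 275 and 250 CPM in sgN6AMT1, which overlapped, at -0.22 (SE 0.0636, edgeR adjusted p 0.00541). PSMD13 held 273, 276 and 308 CPM in sgCtrl and 265, 255 and 230 CPM in sgN6AMT1, at -0.19 (SE 0.0647, edgeR adjusted p 0.0233). The call of PSMD12 was lost in 3 of 16 alternatives (DESeq2, without sgCtrl replicate 2 and without sgN6AMT1 replicate 3) and that of PSMD13 in 6, DESeq2 and the fits without sgCtrl replicate 3, sgN6AMT1 replicate 2 or sgN6AMT1 replicate 3 among them. Adjusted p-values reached 0.07 and 0.173. PSMD14, the deubiquitinase itself, was at 383 ± 19.7 and 385 ± 8.68 CPM (SD, n = 3 each), with an interval of its log2 fold change from -0.107 to 0.118. PSMD3, PSMD7, PSMD8 and PSMD11 did not pass, with log2 fold changes of 0.03, -0.11, -0.0137 and -0.12.

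None of the 3 further base subunits passed by edgeR's test, though 1 of them had an unadjusted p under 0.05. PSMD1 and PSMD2 are the large docking scaffolds, and PSMD4 is a ubiquitin receptor. PSMD1 held 388, 367 and 355 CPM in sgCtrl and 329, 338 and 337 CPM in sgN6AMT1, without overlap, at -0.14 (SE 0.0585, edgeR adjusted p 0.0585). PSMD2 did not overlap either, at -0.0764 (edgeR adjusted p 0.293), and PSMD4 lay at 0.0158 (edgeR adjusted p 0.88).

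**Figure D3:**
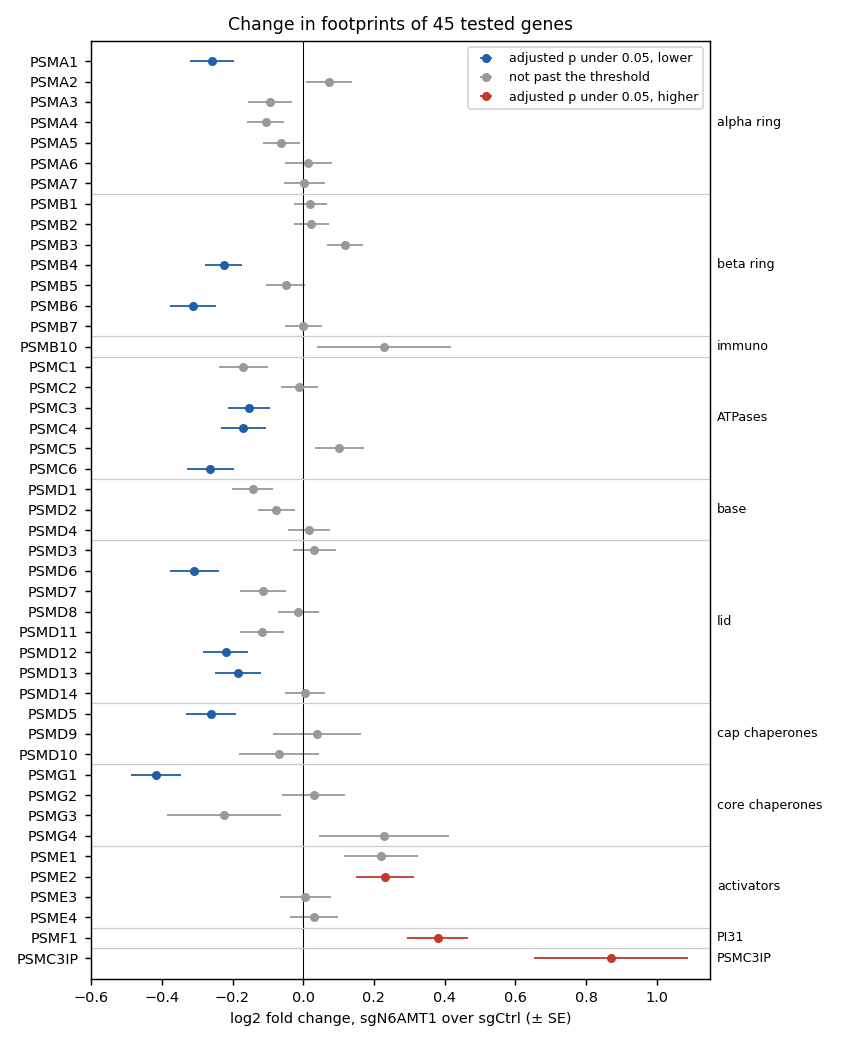
Log2 fold change of sgN6AMT1 over sgCtrl (points) with its SE (bars) for the 45 members that passed the count filter, grouped by role and coloured by edgeR's call. Lower genes, in blue, lie in the rings, the cap and the chaperones, down to -0.42 for PSMG1, and the higher genes, in red, are PSME2, PSMF1 and PSMC3IP.

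Assembly chaperones gave the largest decrease of all members. PSMG1, which pairs with PSMG2 to build the alpha ring, held 203, 217 and 225 CPM in sgCtrl and 164, 157 and 162 CPM in sgN6AMT1. The 3 depleted libraries lay close together and far below the controls. PSMG1 (ENST00000331573.7) fell by 25.1%, a log2 fold change of -0.42 (edgeR adjusted p 1.43e-06, SE 0.0711). It lies on chromosome 21 (39174769 to 39183451), which also carries N6AMT1. The 86 tested genes of that chromosome had a median log2 fold change of -0.26, with 37 lower and 2 higher, and the part of the chromosome in the value of PSMG1 was not tested. Its partner PSMG2 held 106, 113 and 103 CPM in sgCtrl and 111, 112 and 106 CPM in sgN6AMT1, which overlapped, with a log2 fold change of 0.0294 and an interval from -0.145 to 0.204.

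PSMG3 and PSMG4, the other chaperone pair, rested on few counts. For PSMG3 the controls held 49, 98 and 65 counts and the depleted libraries 50, 57 and 61. For PSMG4 the controls held 43, 60 and 31 counts and the depleted libraries 57, 47 and 42. Both overlapped between the groups. Their log2 fold changes, -0.22 (SE 0.161) and 0.23 (SE 0.184), did not pass (edgeR adjusted p 0.321 and 0.383).

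Chaperones of the cap are PSMD5, PSMD9 and PSMD10. PSMD5 held 217, 199 and 202 CPM in sgCtrl and 177, 165 and 173 CPM in sgN6AMT1, with every depleted library below every control. It was lower by a log2 fold change of -0.26 (edgeR adjusted p 0.00278, SE 0.071). PSMD9 and PSMD10 did not pass, at 0.0391 (SE 0.124) and -0.0684 (SE 0.113).

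PSMF1, also called PI31, inhibits the core in the test tube. It held 102, 105 and 102 CPM in sgCtrl and 139, 137 and 125 CPM in sgN6AMT1, so the groups were far apart. PSMF1 (ENST00000333082.7, chromosome 20, 1113263 to 1167782) was 30.2% higher, a log2 fold change of 0.38 (edgeR adjusted p 0.000287, SE 0.0862).

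PSME1 and PSME2 form together the activator cap that interferon gamma induces. PSME2 held 121, 129 and 126 CPM in sgCtrl and 148, 155 and 137 CPM in sgN6AMT1, all above the controls, a log2 fold change of 0.23 (edgeR adjusted p 0.0248, SE 0.0813). That call was lost in 6 of 16 alternatives, with adjusted p-values up to 0.183, among them DESeq2 and the fits without sgCtrl replicate 1, sgCtrl replicate 3, sgN6AMT1 replicate 1 or sgN6AMT1 replicate 2. PSME1 held 83.9, 67.6 and 78.9 CPM in sgCtrl and 95.6, 77.8 and 92.8 CPM in sgN6AMT1. These overlapped, and a log2 fold change of the same size as that of PSME2, 0.22 (SE 0.105), did not pass (edgeR adjusted p 0.116). PSME1 and PSME2 are neighbours on chromosome 14, from 24136200 to 24138964 and from 24143365 to 24146646.

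PSME3, the nuclear activator, held 197, 172 and 185 CPM in sgCtrl and 188, 184 and 182 CPM in sgN6AMT1. PSME4, a large single-chain activator, held 202, 218 and 209 CPM in sgCtrl and 221, 205 and 219 CPM in sgN6AMT1. Both overlapped between the groups and had log2 fold changes of 0.0059 and 0.0302.

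**Figure D4:**
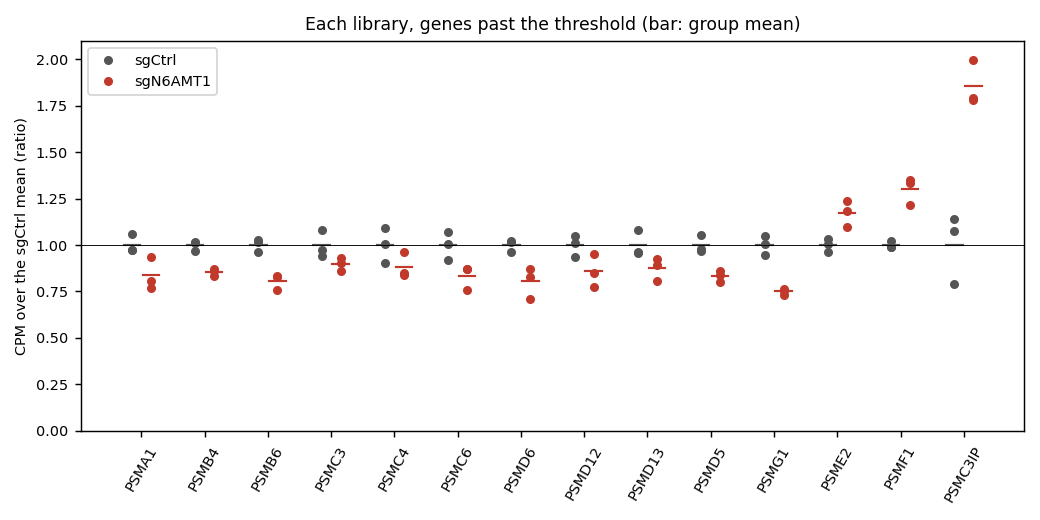
CPM of each library divided by the gene's sgCtrl mean for the 14 members past the threshold, with grey points for sgCtrl, red points for sgN6AMT1 and short lines for group means. The sgN6AMT1 points of PSMB6, PSMD5 and PSMG1 lie below all sgCtrl points, those of PSMC4 and PSMD12 overlap with them, and those of PSMF1 and PSMC3IP lie above.

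Immunoproteasome subunits replace the active sites of the core in immune cells and upon interferon: PSMB8 takes the place of PSMB5, PSMB9 that of PSMB6 and PSMB10 that of PSMB7. In these K562 cells they had few footprints. For PSMB8 the controls held 1, 2 and 0 counts and the depleted libraries 5, 3 and 1. For PSMB9 the controls held 2, 4 and 2 counts and the depleted libraries 7, 3 and 6. Both overlapped between the groups, were under the count filter and did not pass in a fit without it (edgeR adjusted p 0.304 and 0.302), so a change was not detectable at this depth.

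PSMB10 was the most occupied of them, with 45, 40 and 48 counts in controls and 44, 59 and 43 after depletion. Its level was 20.0 ± 5.42 and 22.7 ± 3.15 CPM (SD, n = 3 each), and its log2 fold change of 0.23 had an interval from -0.143 to 0.599 (edgeR adjusted p 0.403). By density, the 3 immune subunits made up 1.55% ± 0.358 (SD, n = 3) of the 6 genes in sgCtrl and 2.04% ± 0.137 in sgN6AMT1. The depleted libraries, from 1.88% to 2.13%, lay above the controls, from 1.14% to 1.77%, but this rested on 46 to 65 counts per library. Taken in pairs, PSMB10 held 3.29% ± 0.938 of its pair with PSMB7 in sgCtrl and 3.71% ± 0.603 in sgN6AMT1, and PSMB9 0.44% ± 0.0805 and 1.23% ± 0.542 of its pair with PSMB6, the gene of the pair that was lower. PSMB11 and PSMA8 had 0 counts in all 6 libraries, of 13431376 counts in all, which allows a level of up to 0.223 CPM as far as counting error goes.

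PSMC3IP, the gene that shares only its letters with the complex, had a larger log2 fold change than any proteasome gene tested. The controls held 24, 33 and 17 counts and the depleted libraries 43, 44 and 39. Every depleted library was above every control, from 10.6 ± 1.95 to 19.7 ± 1.30 CPM (SD, n = 3 each). The log2 fold change was 0.87 (edgeR adjusted p 0.00103, SE 0.217).

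Other genes of the pathway were taken by list. Over all genes tested, 13.9% were lower and 12.9% higher (edgeR). Of 12 listed proteasome partners without a PSM name, 10 were tested, and 3 were lower and 0 higher (edgeR). These were PAAF1, a chaperone of the cap, at -0.38 (SE 0.143), KIAA0368, now ECPAS, an adaptor of the assembled particle, at -0.33 (SE 0.0657), and USP14, a deubiquitinase of the cap, at -0.26 (SE 0.0582). The call of PAAF1 was lost in 8 of 16 alternatives, among them DESeq2 and the fits without sgCtrl replicate 3, sgN6AMT1 replicate 1 or sgN6AMT1 replicate 2, with adjusted p-values up to 0.248. The ubiquitin receptor ADRM1 went from 182 ± 11.0 to 175 ± 21.6 CPM and the core chaperone POMP from 408 ± 14.1 to 437 ± 18.8 CPM (SD, n = 3 each). Neither passed (edgeR adjusted p 0.594 and 0.177), nor did AKIRIN2, which brings proteasomes into the nucleus, at 0.34 (edgeR adjusted p 0.0523). SHFM1, which encodes a small lid subunit, was listed with 0 counts in every library. Whether its reads could be assigned to the listed transcript was not tested, so these counts do not show that it is untranslated.

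NFE2L1 is the transcription factor that raises proteasome genes when the proteasome is inhibited, after NGLY1 has removed its sugars and DDI2 has cut it. NFE2L1 held 109 ± 3.10 and 116 ± 3.16 CPM (SD, n = 3 each) and did not pass (edgeR adjusted p 0.497). Of 10 tested genes on the list for proteasome transcription, 3 were lower and 0 higher: STAT3 at -0.39, NGLY1 at -0.37 and NFYA at -0.35 (edgeR adjusted p 4.62e-05, 0.00605 and 0.0434). The call of STAT3 was kept in all 16 alternatives. That of NGLY1 was lost by DESeq2 and without sgCtrl replicate 2, with adjusted p-values up to 0.0839. That of NFYA was lost in 11, among them DESeq2 and the fits without each library other than sgCtrl replicate 2, with adjusted p-values up to 0.252. MAFK had the largest value of that list, 0.62 with an SE of 0.305, and did not pass. Of 12 substrate delivery genes, FAF1 alone passed, at 0.28 (SE 0.0797, edgeR adjusted p 0.00373, DESeq2 adjusted p 0.0631). The shuttle gene UBQLN2 lay at 0.24 and the segregase VCP at -0.0879. When scaled by total counts, 4 of the 12 were higher, beside 17.0% of all genes tested.

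Among ubiquitin and E1 genes, UBB rose by 0.33 on the log2 scale, and UBA6 and RPS27A were lower, at -0.40 and -0.13. The call of RPS27A was lost in 5 of 16 alternatives, total counts and the fits without sgCtrl replicate 2, sgN6AMT1 replicate 2 or sgN6AMT1 replicate 3 among them, with adjusted p-values up to 0.194. Ubiquitin coding units are nearly identical between genes, so the split of reads between UBB, RPS27A and similar genes is uncertain. Among class I antigen genes, which use the peptides that proteasomes make, 5 of 10 tested were higher and 1, TAP2, was lower, at -0.51, by edgeR but not by DESeq2. IRF1, an interferon-responsive factor, rose by 1.84, B2M by 0.84 and HLA-E by 0.79 in log2 units (edgeR adjusted p 1.05e-06, 1.69e-25 and 1.67e-05), and the peptide-loading genes TAPBP and CALR by 0.72 and 0.21.

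Other large cytosolic complexes were measured in the same fit. TRiC had 6 of 8 genes lower (75.0%) and a median of -0.20. CCT8, with the largest decrease in TRiC at -0.37, lies on chromosome 21 like N6AMT1, and the part of the chromosome in its value was not tested. The 73 cytosolic ribosomal protein genes had 49 lower (67.1%) and a median of -0.17. Of 31 core and cap subunits 9 were lower, and of all genes tested 13.9% (edgeR). Whether these shares differ was not tested.

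Over tested genes with a CDS length the median level was 35.5 CPM. For lower members it was 259 CPM over 10 genes with a CDS length, beside 309 CPM over 30 members that did not pass. Their coding sequences had a median of 1172 against 790.5 bases and a GC content of 45.5% against 48.3%, with medians of 1392 bases and 51.0% over tested genes. The 48 genes were spread over 17 chromosomes, 8 of them on chromosome 14 and 7 on chromosome 17.

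NFE2L1 acts through antioxidant response elements, so promoters were searched for the letters TGACNNNGC on both strands. RefSeq promoters, of 250 bases before to 50 bases after the start of a gene in GRCh38.p14, were held for 42 of the 48 proteasome genes. The letters were found in 13 of them (31.0%), beside 13.6% of all promoters and 15.6% of those of tested genes, in 4 of the 10 promoters of lower members (40.0%) and in 7 of the 26 of tested members that did not pass (26.9%). The letters CCAAT, the box bound by NFY factors, were found in 45.2% of members' promoters on either strand. The share was 35.7% of all promoters and 38.2% of those of tested genes. CCAAT was found in 3 of the 10 promoters of lower members (30.0%) and in 14 of the 26 of those that did not pass (53.8%). A match describes letters and not a bound site. The stretches of the 4 lower members and of the higher PSME2 are shown with 10 bases on either side, as they are the ones beside a measured change, and that of PSMD3 before its start, a gene that did not pass, for comparison. Capitals mark the match, and in PSMC4 it is read from the opposite strand and lies after the start.

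PSMD5, chr9:120843038-120843066, minus strand: tggctacagtTGACACGGCcctaacggag
PSMD12, chr17:67366724-67366752, minus strand: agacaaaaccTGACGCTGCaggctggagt
PSMG1, chr21:39183616-39183644, minus strand: gcccagggcaTGACAGCGCgggcgggcgg
PSMC4, chr19:39971182-39971210, plus strand: acagaggccgGCTTGGTCActatggagga
PSME2, chr14:24146767-24146795, minus strand: ccctggactgTGACCCAGCcagcaccgcc
PSMD3, chr17:39980760-39980788, plus strand: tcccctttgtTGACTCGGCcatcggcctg

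The matches began 134, 165 and 183 bases before the start of PSMD5, PSMD12 and PSMG1, and 175 bases before that of PSME2. In PSMD3, whose level was 365 ± 30.0 and 373 ± 22.4 CPM (SD, n = 3 each), the match began 37 bases before the start.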

How the data were processed

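Ribosome footprints were sequenced in K562 cells, in 3 control and 3 N6AMT1-depleted libraries. The authors deposited 1 table of whole-number counts per gene, each row named by symbol and transcript. Which of their counting steps the table holds is not settled here. The study's methods do not state whether reads were collapsed by molecular identifiers, so counts are not taken as independent molecules. Samples were grouped by GEO labels. Members, lists and tests were chosen with earlier results of these data known.

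Counts were analysed in R 4.3.3 with edgeR 4.0.16 (TMM, filterByExpr with a minimum of 10 counts, robust quasi-likelihood fit), which kept 9202 of 19330 genes. P-values were adjusted over these by Benjamini-Hochberg at 0.05, and 95% intervals are 1.96 SE on either side. Alternatives were DESeq2 1.42.0, limma-voom (limma 3.58.1), other scaling, filters, a trend removal, a replicate block and leaving out each library. The study's methods used DESeq2. CDS lengths came from GENCODE by transcript for 47 of 49 members. Every member is accounted for, and genes outside the name rule were named where they passed the threshold, had one of the 3 largest log2 fold changes of their list, or were ADRM1, POMP, SHFM1 or NFE2L1. VCP and DDI2 were added after their values were seen, and a few genes that the rule names are not reported here. The fit was also run on 1 draw of simulated counts with 200 changed genes, fewer than the 2473 called here. Its outcome is not reported here, and it did not test the choice of scaling. Library totals of 1821356 to 2969736 counts limit genes with few counts, and p-values measure the spread between these 3 infections per group.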

Additional observations from a re-analysis of the deposited data

How the results depend on the processing

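Over the 16 alternatives, no called member changed direction. PSMA1, PSMB4, PSMB6, PSMC6, PSMD5, PSMD6, PSMG1 and PSMF1 passed in all 16 and PSMC3IP in all 15 that tested it. The calls of PSMC3, PSMC4, PSMD12, PSMD13 and PSME2 were lost in 10, 10, 3, 6 and 6 of them. DESeq2 called 7 proteasome genes lower and 1 higher, total counts 4 higher, and the removal of CDS length and GC trends 17 lower and 1 higher. Total counts moved the median log2 fold change to 0.0233 over proteasome genes, 0.0303 over the core rings and -0.0628 over the cap, while all genes shifted by 0.0546, and the trend removal moved the first 2 to -0.0912 and -0.0973. On TMM-adjusted library sizes the proteasome share was 1.456% in sgCtrl and 1.395% in sgN6AMT1. Leaving out 1 library at a time gave 8 to 11 lower and 1 to 2 higher genes. Over all genes, DESeq2 called 1329 and edgeR 2473. With the replicate number as a block, 9 members were lower and 2 higher, and 2390 genes were called. Same-numbered libraries had correlations of -0.0612, 0.0198 and 0.0162, so the numbers were not taken as pairs. The alternative with RefSeq protein lengths was not run. Members with few counts, such as PSMB8, PSMB9, PSMG3 and PSMG4, are limited by depth. The causes of these changes were not tested.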
